A study of Mus musculus with 12 samples.

Results

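The choroid plexus genes described here are 10 genes, Ttr, Kl, F5, Folr1, Otx2, Cldn2, Kcnj13, Slc4a5, Tmem72 and Sostdc1, out of 54833 genes in the count table of a mouse brain RNA-seq study of age and intracerebral hemorrhage (ICH). They were taken from the table by gene symbol. They had been chosen on measured values of these libraries, because they varied together within groups and Ttr spanned a very wide range, so their spread and their co-variation are given as a description with no test. All 10 passed the filter on low counts. The tissue was perihematomal tissue of the ipsilateral caudate putamen of wild-type (WT) male mice, taken 24 h after surgery. There were 4 groups of 3 libraries: young sham and young ICH (8 to 10 weeks old), and aged sham and aged ICH (20 to 22 months old). The hemorrhage was induced by an injection of type IV collagenase, and the controls underwent sham surgery with an injection of saline. Each library pooled the tissue of 2 to 3 mice, so a value belongs to a pool and not to an animal.

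The choroid plexus is a folded epithelium within the brain ventricles that secretes cerebrospinal fluid and forms the barrier between blood and this fluid. Its epithelial cells are known for very strong expression of transthyretin and for channels, bicarbonate transporters and leaky tight junctions that carry ions and water. The caudate putamen borders the lateral ventricle, which holds a choroid plexus, while its own projection neurons are known for dopamine receptor genes and not for the genes listed here. How choroid plexus transcripts came to be in these samples was not tested. In bulk tissue, fewer cells of a type and less RNA per cell cannot be told apart.

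The libraries held 28410896 to 37785160 reads counted on genes. Levels are given as CPM, the counts scaled to the normalized library size, unless FPKM, which is also divided by transcript length, is named. Markers of striatal projection neurons, the cells that make up most of the caudate putamen, were present in all 12 libraries, with a summed level from 325 CPM in aged ICH 1 to 3024 CPM in young sham 1. They were also low in young ICH 2 (513 CPM) and aged ICH 3 (741 CPM). A list of 6 thalamic genes was highest in young ICH 1, at 478 CPM, against 40.98 to 167 CPM in the other libraries.

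The regulatory sequences upstream of these genes were read because the genes moved together and because a transcription factor, Otx2, is among them. Promoter windows from 250 bases before to 50 bases after the start of transcription were found in RefSeq (GRCm38.p6) for Kcnj13, F5, Kl, Slc4a5, Tmem72, Otx2 and Cldn2, with 10 windows in all since Otx2 has 4. Otx2 belongs to the homeodomain factors that bind the letters TAATCC, which were searched on both strands. They occurred in 1 of the 10 windows, that of Otx2 at chr14:48665060-48665359 on the minus strand, where the match starts at position -211 from the start of transcription. Of all 32851 windows of this length in the table, 7.06% held the same letters. The window is printed with the match in capitals, which reads GGATTA because it lies on the other strand. The windows of Kl (chr5:150952357-150952656, plus strand) and Cldn2 (chrX:139800558-139800857, plus strand) stand beside it as examples of a secreted protein and of a junction protein without the letters.
Otx2: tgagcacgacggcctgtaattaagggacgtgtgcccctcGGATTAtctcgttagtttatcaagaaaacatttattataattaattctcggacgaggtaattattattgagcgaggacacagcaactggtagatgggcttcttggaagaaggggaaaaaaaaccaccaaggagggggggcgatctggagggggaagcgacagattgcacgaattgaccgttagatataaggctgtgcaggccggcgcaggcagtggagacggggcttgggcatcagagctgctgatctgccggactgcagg
Kl: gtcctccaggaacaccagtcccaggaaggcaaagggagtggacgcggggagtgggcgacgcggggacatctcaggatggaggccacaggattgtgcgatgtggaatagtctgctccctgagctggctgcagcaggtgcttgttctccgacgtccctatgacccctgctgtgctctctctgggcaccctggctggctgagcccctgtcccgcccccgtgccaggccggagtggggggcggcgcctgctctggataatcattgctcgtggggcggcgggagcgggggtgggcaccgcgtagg
Cldn2: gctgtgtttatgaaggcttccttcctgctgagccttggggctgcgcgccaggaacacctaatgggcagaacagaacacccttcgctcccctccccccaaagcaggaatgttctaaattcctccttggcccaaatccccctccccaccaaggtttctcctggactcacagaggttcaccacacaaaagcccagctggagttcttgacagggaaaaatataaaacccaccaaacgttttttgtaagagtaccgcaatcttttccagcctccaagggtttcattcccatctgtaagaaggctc
The letters TAATTA of the LIM homeodomain group, which read the same on both strands, occurred in 2 of the 10 windows, both of Otx2, against 5.29% of all windows. The forkhead letters GTAAACA occurred in 0 of the 10, against 3.65% of all windows, with both strands searched. These matches describe letters in a window and say nothing of binding.

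Among the secreted products, Ttr, which encodes the thyroid hormone and retinol carrier transthyretin, was the most abundant of the 10 genes by FPKM. The gene lies at chr18:20665280-20674321 on the plus strand (GRCm38, GENCODE vM21, as for all positions of genes given here). In the young sham group, its level was 420, 264 and 38.8 CPM in replicates 1 to 3. Young ICH libraries held 34.0, 5.26 and 3651 CPM. Young ICH 3 was therefore 694-fold above young ICH 2 of the same group. Aged sham libraries were close together at 47.3, 28.9 and 64.9 CPM. In the aged ICH group, Ttr reached 1423 and 1810 CPM in replicates 1 and 2 and was 28.6 CPM in replicate 3. Each ICH group therefore had at least 1 library above and 1 library below every aged sham library. In young ICH 3, 115864 reads fell on Ttr, 0.378% of all counts, and Ttr ranked 10 among all genes by count. In young ICH 2 it had 158 reads and ranked 12466.

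Kl (chr5:150952607-150993817, plus strand) encodes klotho, a membrane protein whose shed form acts as a hormone. Its level was 30.0, 17.0 and 4.75 CPM in young sham, 5.60, 1.997 and 209 CPM in young ICH, 5.76, 6.61 and 5.84 CPM in aged sham, and 64.3, 68.6 and 4.399 CPM in aged ICH. The order of the libraries was close to that of Ttr over a smaller range, 105-fold from lowest to highest. F5, the coagulation factor V gene (chr1:164151838-164220277, plus strand), ranged from 1.04 CPM in aged ICH 3 through a median of 2.72 to 68.3 CPM in young ICH 3. Sostdc1 (chr12:36314139-36318452, plus strand), a secreted antagonist of BMP and Wnt signaling, ranged from 0.166 CPM in young ICH 2 through a median of 1.07 to 22.9 CPM in young ICH 3. All 4 secreted products were thus highest in young ICH 3.

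Among the genes for junction, channel and transporter proteins, Cldn2 (chrX:139800828-139811386, plus strand) encodes claudin 2, which forms cation-selective pores in leaky tight junctions. It was at 3.92, 2.22 and 0.198 CPM in young sham and at 0.377, 0.0666 and 35.6 CPM in young ICH. Aged sham libraries held 0.397, 0.303 and 0.779 CPM, and aged ICH libraries 12.6, 16.8 and 0.0943 CPM. Young ICH 3 stood apart in its group, and aged ICH 3 fell below every aged sham library. Young ICH 2 had only 2 reads on Cldn2, so the ratio of highest to lowest library, 534, has an exact 95% counting interval of 148 to 4419.

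Slc4a5 (chr6:83219828-83304945, plus strand) encodes a sodium bicarbonate cotransporter of the plexus epithelium. Its level was 5.39, 3.68 and 0.528 CPM in young sham, 0.319, 0.0333 and 27.7 CPM in young ICH, 0.894, 0.169 and 0.569 CPM in aged sham, and 10.8, 14.7 and 0.314 CPM in aged ICH. Young ICH 2 held 1 read, and the ratio of 832 to young ICH 3 has an exact counting interval of 149 to 32910. The inward rectifier potassium channel gene Kcnj13 (chr1:87386363-87394729, minus strand) ranged from 0.126 CPM in aged ICH 3 through a median of 0.565 to 11.4 CPM in young ICH 3. Kcnj13 overlaps Gigyf2 on the other strand, and no strand setting of the counting is given in the sources used here, so reads of the 2 genes could not be told apart where they overlap. The same limit holds for Folr1, which overlaps Anapc15, for Otx2, which overlaps Otx2os1, and for F5, which overlaps Gm16548, all on the other strand. Otx2 also overlaps Gm49154 and F5 overlaps Gm16588 on the same strand, where no strand setting would separate the reads.

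Folr1 (chr7:101858331-101870788, minus strand), the folate receptor that carries folate into cerebrospinal fluid, was at 3.21, 1.998 and 0.825 CPM in young sham, 0.551, 0.266 and 34.5 CPM in young ICH, 0.232, 0.270 and 1.14 CPM in aged sham, and 8.92, 14.7 and 0.377 CPM in aged ICH. Tmem72, a transmembrane protein gene (chr6:116679063-116716913, minus strand), was at 7.30, 5.55 and 0.528 CPM in young sham and 0.493, 0.333 and 71.8 CPM in young ICH. It was at 0.497, 0.539 and 1.08 CPM in aged sham and at 20.4, 27.7 and 0.377 CPM in aged ICH. Both genes repeated the pattern of 1 high young ICH library and 2 high aged ICH libraries.

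Otx2 (chr14:48657677-48673819, minus strand) is a homeodomain transcription factor of the plexus epithelium that is also known from parts of the thalamus and midbrain. Its level was 3.29, 2.47 and 0.660 CPM in young sham, 2.64, 0.333 and 28.9 CPM in young ICH, 1.03, 1.25 and 2.61 CPM in aged sham, and 8.92, 14.0 and 0.377 CPM in aged ICH. Otx2 departed from the other genes in young ICH 1, where it had 77.6 counts per 1000 Ttr counts, the highest of the 12 libraries and against 6.27 in aged ICH 1. Young ICH 1 was also the library in which the list of thalamic genes was highest, with Prkcd at 302 CPM and Tcf7l2 at 82.3 CPM. The part of thalamic genes in the Otx2 value was not tested.

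**Figure D1:**
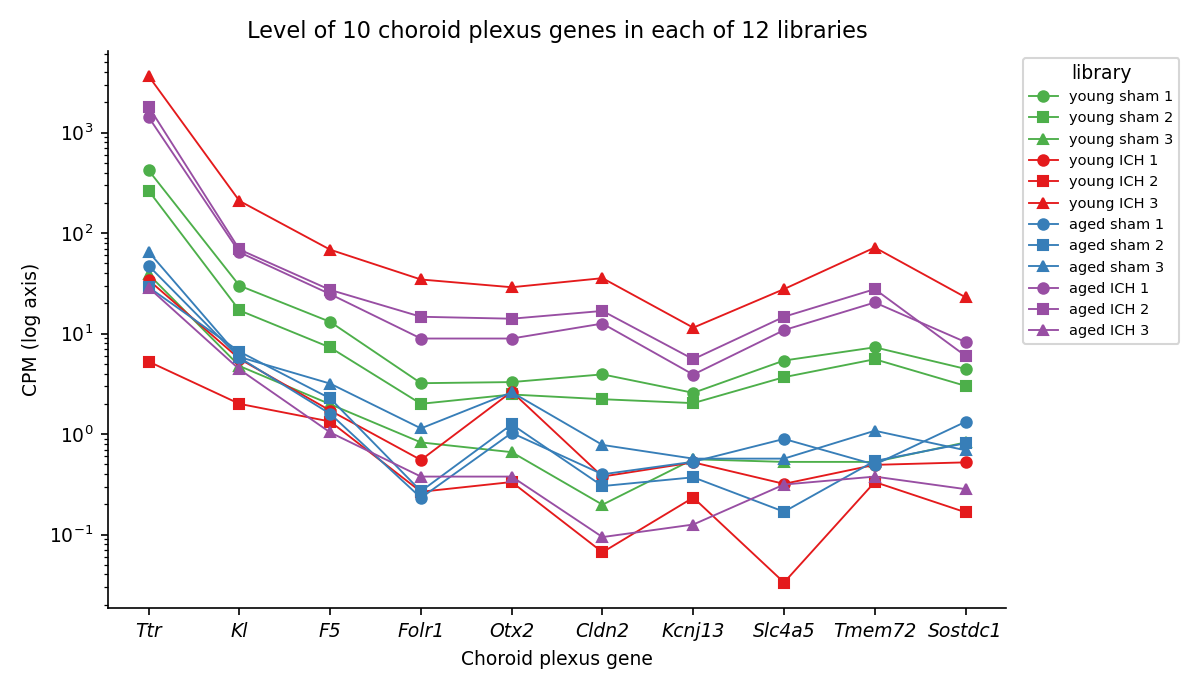
CPM on a log axis for the 10 choroid plexus genes, with 1 point per library joined by a line, colours for the 4 groups and symbols for replicates 1 to 3. Young ICH 3 is the uppermost line at every gene, aged ICH 1 and 2 follow, and the lines run nearly parallel where levels are high.

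The order of the libraries was shared by the 10 genes. Young ICH 3 was the highest of the 12 libraries for 10 of 10 genes, aged ICH 1 and 2 took ranks 2 and 3, and young sham 1 took rank 4 for all 10. Within the young sham group, replicate 1 was the highest and replicate 3 the lowest for 10 of 10 genes. Young ICH 2 was the lowest library of its group for 10 of 10 genes, as was aged ICH 3 of its own. The aged sham libraries had no such common order, with 7 genes highest in replicate 3, 2 in replicate 1 and 1 in replicate 2. Summed over the 10 genes, the level ran from 49.7 to 494 CPM in young sham, 10.0 to 4162 CPM in young ICH, 41.5 to 81.3 CPM in aged sham and 36.0 to 2006 CPM in aged ICH.

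The SD within groups was 2.03 for Kcnj13 to 3.10 for Ttr on the log2 CPM scale, against a median of 0.193 over all 21495 genes tested, and the 10 genes held ranks between 2 and 21 by this SD. Their biological coefficient of variation in the fit was 0.992 to 1.31, against a median of 0.136. These ranks restate what chose the genes.

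Levels per transcript length kept a broad order among the genes. By FPKM, Ttr was the first of the 10 in all 12 libraries, from 4.34 FPKM in young ICH 2 to 3100 FPKM in young ICH 3. Kl took rank 2 or 3 throughout, and Tmem72 rank 9 or 10. The ranks of Otx2 and Folr1 were the least fixed, as Otx2 moved between 2 and 9 and Folr1 between 3 and 9.

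The proportions among the genes were not constant. Cldn2 had 3.29 to 12.7 counts per 1000 Ttr counts and Slc4a5 had 5.83 to 18.9, which is a 3.84-fold and a 3.24-fold range. F5 had 15.02 to 253 and Kcnj13 2.74 to 44.3 counts per 1000 Ttr counts, a 16.9-fold and a 16.2-fold range. Some ends of these ranges rest on few reads, so counting error enters them. Cldn2 had 3 reads at its lowest (aged ICH 3) and 2 at its highest (young ICH 2). Slc4a5 had 5 at its lowest (aged sham 2) and Kcnj13 had 7 at its highest (young ICH 2). The highest value of F5, Kl, Folr1, Cldn2, Kcnj13, Sostdc1 and Tmem72 in this ratio was in young ICH 2, the library with the fewest Ttr reads. Without it, the range was 5.20-fold for F5, 5.60-fold for Kcnj13 and 2.002-fold for Tmem72, while Otx2 kept 12.4-fold, so the order of the genes by this range rests on that library.

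Co-variation was measured as Pearson's r between a gene's log2 CPM and the mean of the choroid plexus genes (for a member, the other 9), after the mean of each group was subtracted, over 12 libraries. The 10 genes had r from 0.969 (Otx2) to 0.996 (Cldn2), with a median of 0.987. Over the 45 pairs of genes, r ran from 0.937 (Folr1 and Sostdc1) to 0.995 (F5 and Tmem72). Without young ICH 3 the median r was 0.975 and the lowest 0.943, for Folr1. The points share libraries and depth, and no p is given because co-variation chose the genes.

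A further list of 36 choroid plexus genes co-varied with the 10 genes. It was written from general knowledge but with earlier results of these data known. Its co-variation is therefore a description and not an independent check. All 36 were tested, their r ran from 0.624 to 0.991 with a median of 0.954, and 35 of 36 had r of at least 0.8, against 558 of 21485 genes outside the 10 (2.60%). Highest were Slc2a12, a glucose transporter (0.99), 1500015O10Rik (0.99), Mfrp (0.99), Steap1 (0.98), the epithelial keratin Krt18 (0.98), Col8a1 (0.98), Cldn1 (0.97) and Enpp2, the lysophospholipase autotaxin (0.97). Lowest were Wfikkn2 (0.82), the serotonin receptor Htr2c (0.81), Cldn3 (0.80) and the retinol receptor Stra6 (0.62). By role, 10 of 10 channels and transporters, 6 of 6 secreted proteins and 6 of 6 junction and keratin genes had r of at least 0.8. Of these lowest genes, Htr2c had its highest level, 77.2 CPM, in aged sham 2 and not in young ICH 3. These counts rest in part on young ICH 3. Without it, r was below 0.8 for Stra6 (0.28), Cldn3 (0.62), Wfikkn2 (0.66), Htr2c (0.66), Igfbp2 (0.67), Krt8 (0.74) and Perp (0.78). The rest of the 36 stayed above 0.8.

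Of all genes outside the 10, the 15 with the highest r ran from Ehf (0.99), an epithelial ETS factor, to Atp10d (0.98). Among the others were Slc2a12, 1500015O10Rik, Mfrp, Prr32, Steap1, Oca2, the copper transporter gene Slc31a1, 4933429O19Rik, Krt18, Sulf1, Col8a1 and 2900040C04Rik, and 6 of the 15 belong to the list of 36. Their levels differed widely. Ehf ran up to 9.14 CPM in young ICH 3, whereas Sulf1, a heparan sulfate sulfatase, ran from 25.7 to 132 CPM and Slc31a1 from 24.1 to 57.3 CPM.

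Markers of neighbouring cell types moved with the 10 genes to a smaller extent. For 12 of 12 ependymal genes, those of the ciliated cells that line the ventricle, r was positive, from 0.641 to 0.876, and 3 of 12 reached 0.8. Without young ICH 3, r ran from 0.337 (Tekt1) to 0.745 (Dnah11), so none reached 0.8. Log2 of the summed ependymal level over its median library was 0.03 in aged ICH 1 and 0.82 in aged ICH 2. For the 10 genes it was 4.49 and 4.83. Of the 12 ependymal genes, 3 are named as the most abundant. These were Foxj1, the master regulator of motile cilia (r 0.79 over 12 libraries), Cfap43 (0.75) and Rarres2 (0.76). The summed ependymal level was 24.6 to 43.5 CPM in young sham, 26.8 to 108 CPM in young ICH, 24.1 to 48.9 CPM in aged sham and 22.9 to 57.7 CPM in aged ICH, with the highest value in young ICH 3 and no ependymal gene at 0 in any library. The part of ependymal cells in the results was not tested.

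Fibroblast genes had a median r of 0.485, with Col1a2 at 0.86, Dcn at 0.64 and Col1a1 at 0.20, and 2 of 9 reached 0.8. Lum and Dpt, named after their values were seen, were the highest and the lowest of this list, at 0.89 and -0.97. Dpt reached at most 0.377 CPM. Median r was 0.439 for subventricular neuroblast genes, among them Dcx (-0.39), Sox11 (0.16) and Dlx1 (0.25), and 0.420 for endothelial genes, among them Flt1 (0.57), Pecam1 (0.30) and Cldn5 (0.31). Striatal projection neuron genes such as Pde10a (0.44) and Ppp1r1b (0.44) had a median of 0.392 and thalamic genes one of 0.298, with Prkcd at 0.28, Tcf7l2 at 0.32 and Rgs16 at 0.08. Cortical projection neuron genes were negative in 6 of 6 cases, from -0.82 (Slc17a7) to -0.55 (Neurod6), with Cux2 at -0.76 and Tbr1 at -0.67. The 5 tested retinal pigment epithelium genes, a related epithelium that shares some of these genes, had a median r of 0.140, with Rlbp1 at -0.20, Best1 at 0.14 and Rpe65 at -0.31.

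**Figure D2:**
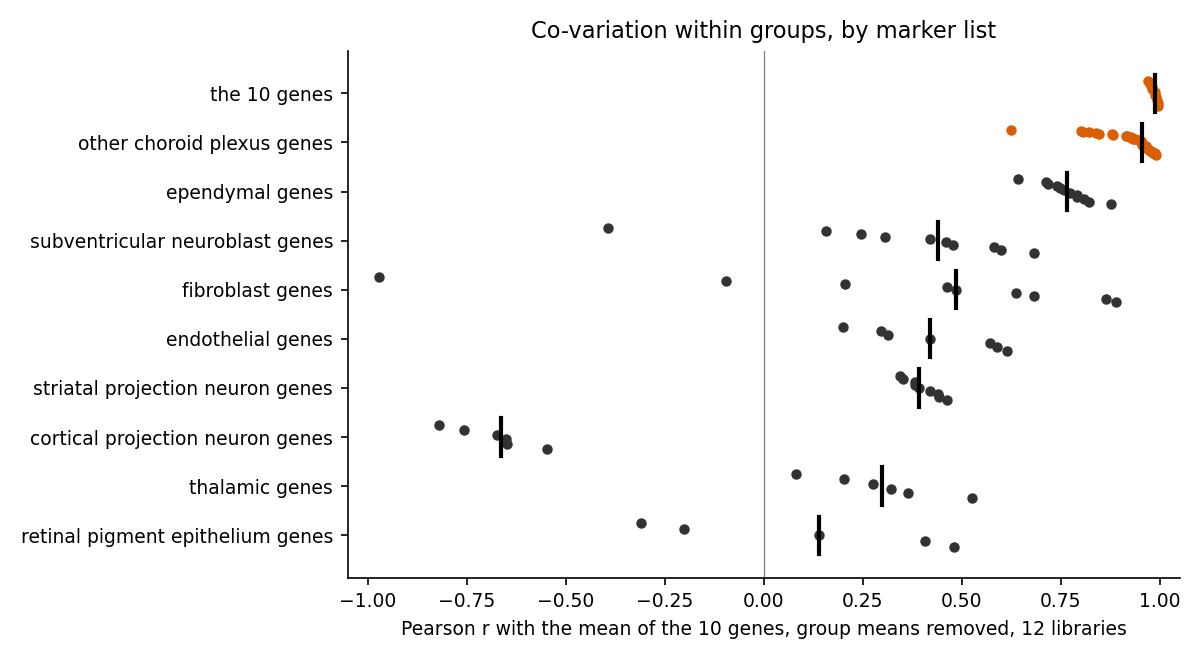
Pearson r of each gene with the mean of the 10 choroid plexus genes after group means were subtracted, over 12 libraries, with 1 point per tested gene and a bar at each list's median. The medians are 0.987 for the 10 genes, 0.954 for the other choroid plexus genes and 0.765 for the ependymal genes, while cortical genes lie below 0.

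**Figure D3:**
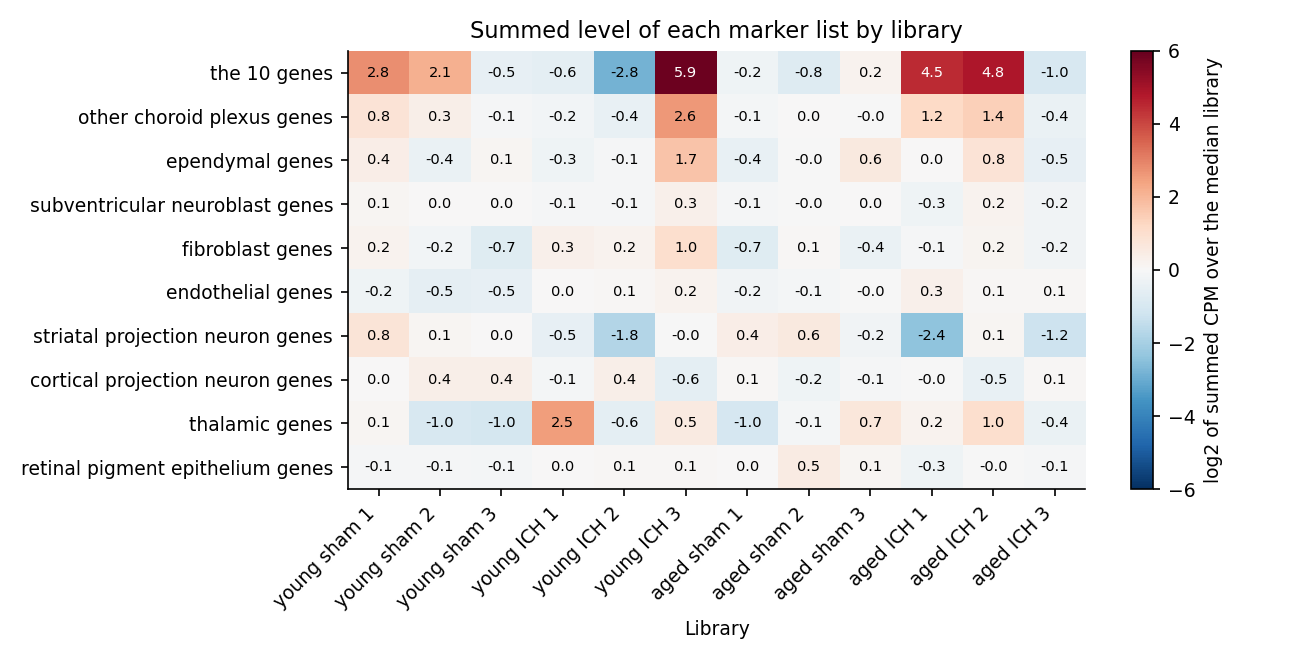
Log2 of the summed CPM of each gene list in each library over the median library of that list. The 10 genes run from -2.8 in young ICH 2 to 5.9 in young ICH 3, and the other choroid plexus and ependymal genes are also highest in young ICH 3.

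Group comparisons were then made with edgeR's quasi-likelihood test on the counts of all 12 libraries. A differentially expressed gene (DEG) had a fold change (FC) above 1.5 or below 0.67 and an unadjusted P below 0.05, the criterion of the study, and adjusted P-values (Benjamini-Hochberg over the 21495 genes) stand beside it. The comparisons of ICH with sham and of aged with young mice share groups, so their results are not independent of each other. Since the 10 genes were chosen on the spread within groups of these libraries, counts of members are set beside the share of all genes called.

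In young mice, the comparison asks what ICH changed against sham surgery. The mean of the 3 libraries was higher in young ICH for 10 of 10 genes, with a median log2FC of 2.18 and a range from 1.23 (Kcnj13) to 2.53 (Folr1), against a median of 0.022 over all genes tested. Ttr averaged 1230 CPM in young ICH and 241 CPM in young sham, with a log2FC of 2.35 ± 1.77 (SE) and an adjusted P of 0.386 by edgeR. None of the 10 genes was a DEG by edgeR (0 with an unadjusted P below 0.05) or by DESeq2, while 12.2% of all genes tested were, and 7.99% with an adjusted P below 0.05. For every gene the values of the groups overlapped, because young ICH 2 lay below the young sham range and young ICH 3 above it. As higher in young ICH, 1 of 10 genes met the criterion without young ICH 1, against 11.9% of all genes in either direction. Without young ICH 2 it was 2 of 10, against 14.4% of all genes in either direction.

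Without young ICH 3 the direction turned. The log2FC was then negative for 10 of 10 genes, with a median of -2.63 and a range from -4.10 (Slc4a5) to -0.51 (Otx2). Ttr had -3.61 ± 1.48 (SE, adjusted P by edgeR 0.137). Ttr, Slc4a5, Tmem72 and Sostdc1, 4 of 10, met the DEG criterion as lower, and none of them had an adjusted P below 0.05. In either direction, 11.0% of all genes tested met the criterion in that fit. The sign of the young ICH response of these genes was therefore set by 1 library.

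In aged mice, the same question gave higher means in aged ICH for 10 of 10 genes, with a median log2FC of 3.37, against 0.0018 over all genes tested. The size ran from 2.24 ± 1.31 (SE) for Otx2 to 4.53 ± 1.96 for Ttr, whose means were 1087 and 47.0 CPM. Ttr (adjusted P by edgeR 0.151), Tmem72 (0.148), Folr1 (0.156), Cldn2 (0.164) and Slc4a5 (0.169) met the DEG criterion, and Kl, F5, Otx2, Kcnj13 and Sostdc1 did not. The 5 of 10 compare with 10.1% of all genes tested, and by DESeq2 7 of 10 with 9.25%. With an adjusted P below 0.05 there were 0 of 10 by edgeR, against 5.48% of all genes, and 2 of 10 by DESeq2, against 6.09%. For all 10 genes the groups overlapped, since aged ICH 3 lay within or below the aged sham range.

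The errors of these log2FC were wide. The median SE of log2FC was 1.57 over the 10 genes against 0.159 over all genes in the aged comparison, and 1.40 against 0.159 in the young comparison. The spread that all 12 libraries share in the fit enters each comparison. Without young ICH 3, a library of neither aged group, the 10 log2FC of aged ICH vs. aged sham kept a median of 3.37. Yet 10 of 10 met the DEG criterion, against 10.4% of all genes. With an adjusted P below 0.05 by edgeR there were 6 of 10, against 6.01% of all genes. Ttr then had an SE of 1.28 and an adjusted P of 0.0373. Without any one of the aged ICH replicates 1 and 2 or of the 3 aged sham libraries, 0 of 10 met the criterion. The number was 1 without young sham 2, 3 without young sham 1, 4 without young sham 3, 7 without young ICH 1, 8 without young ICH 2 and 9 without aged ICH 3. Over the 12 fits that left out 1 library, 7.55% to 12.7% of all genes were called in this comparison.

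Aged sham and young sham mice were compared to see what age changed without hemorrhage. All 10 genes had lower means in aged sham, with log2FC from -2.65 (Tmem72) to -0.40 (Otx2) and a median of -1.83. Ttr had -2.36 ± 1.79 (SE, adjusted P by edgeR 0.631). The groups overlapped for all 10, with young sham 3 among the aged sham values or near them, and 0 of 10 were DEGs by edgeR (0 with an unadjusted P below 0.05) or DESeq2, against 3.72% of all genes. In a fit of these 2 groups alone, 9 of 10 met the criterion as lower, against 3.81% of all genes in either direction. In that fit 0 of 10 had an adjusted P below 0.05 by edgeR.

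Aged ICH and young ICH mice were compared to see what age changed after the hemorrhage. The log2FC of aged ICH vs. young ICH ran from -0.70 (Sostdc1) to -0.12 (Slc4a5), with a median of -0.44, and Ttr had -0.18 ± 1.68 (SE, adjusted P by edgeR 0.983). With such errors a difference of several fold in either direction was not detectable. None of the 10 was a DEG by edgeR (0 with an unadjusted P below 0.05) or DESeq2, against 3.52% of all genes. Without young ICH 3 the values turned to a median of 4.01, from 2.36 (Otx2) to 5.78 (Ttr). In that fit 9 of 10 met the criterion as higher, against 4.72% of all genes in either direction. None of the 10 had an adjusted P below 0.05 by edgeR.

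The interaction, which is the response to ICH in aged mice minus that in young mice, had a median log2FC of 1.38 over the 10 genes, from -0.05 (Otx2) to 2.43 (Slc4a5). None of the 10 was called by edgeR (0 with an unadjusted P below 0.05) or DESeq2, and 1.56% of all genes were. Without young ICH 3 the median was 5.72, 9 of 10 met the criterion against 2.11% of all genes in that fit, and no adjusted P was below 0.05 by edgeR. Otx2 was the gene left out in that count, with 2.76 ± 1.52 (SE).

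**Figure D4:**
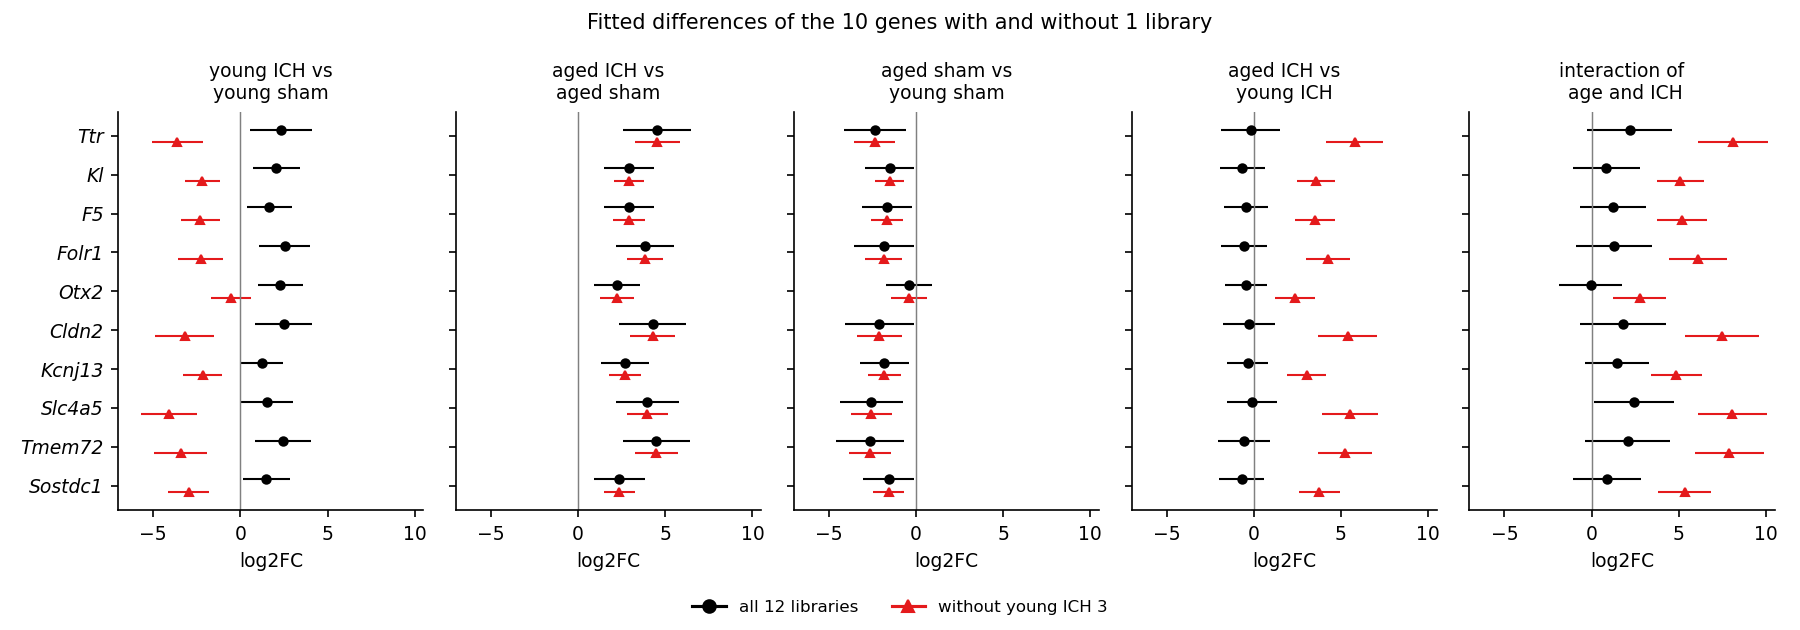
Log2FC of each of the 10 genes with its SE (bars) in the 5 comparisons, from all 12 libraries (black circles) and without young ICH 3 (red triangles). Black points lie above 0 and red triangles below 0 in young ICH vs. young sham, and the reverse holds for aged ICH vs. young ICH.

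The list of 36 other choroid plexus genes was compared in the same fit. In young ICH vs. young sham, 35 of 36 had a log2FC above 0 (median 1.49). Of the 36, 5 met the criterion as higher, against 1861 of all 21495 genes tested (12.2% in either direction). These 5 were Igfbp2, Col8a1, Cldn3, Slc4a2 and Trpv4. In aged ICH vs. aged sham, 35 of 36 were above 0 (median 1.49). Of the 36, 9 met the criterion as higher, against 1557 of all 21495 genes tested (10.1% in either direction). These 9 were Igfbp2, Col8a1, Cldn3, Aqp1, Kcne2, Mfrp, Slc2a12, Slco1a5 and Steap1. These genes are named because they were called, and the last 6 include the water channel Aqp1 and the potassium channel subunit Kcne2. Igfbp2, an insulin-like growth factor binding protein also made by glia and other cells, had an adjusted P below 0.05 by edgeR in both, with log2FC 1.57 ± 0.29 (SE, 0.00446) in young and 1.38 ± 0.29 (0.0123) in aged mice. It was the only 1 of the 36 with such an adjusted P, against 7.99% of all genes in young and 5.48% in aged mice, in either direction. Its r with the 10 genes was 0.84, and 0.67 without young ICH 3. Igfbp2 was at 27.7 CPM in young ICH 2 and 31.6 CPM in aged ICH 3, where the 10 genes were lowest in their group. The sham libraries held 12.7 to 19.4 CPM. In both age comparisons and in the interaction, 0 of 36 were called by edgeR.

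The DEGs of the whole table were also counted by their co-variation with the 10 genes. Of the 2612 DEGs of young ICH vs. young sham, none of them a member, 86 had r of at least 0.8, and 84 of these were higher in ICH. Of the 2159 DEGs of aged ICH vs. aged sham outside the 10, 62 had such an r, and 58 were higher. The age comparisons held 6 of 799 in sham and 9 of 756 in ICH, and the interaction held 1 of 336. The 558 genes with this r are 2.60% of all genes tested outside the 10. Whether their own spread differs from that of other genes was not tested. Both r and the DEG calls come from the same libraries.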

How the data were processed

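Reads were aligned by the authors to GRCm38.p6 with HISAT2 and counted per gene with featureCounts, per the labels and the study's methods; no source used here gives the strand setting. The authors deposited raw counts and FPKM of 12 libraries for 54833 genes in 1 table, and 0 value columns lacked a sample. Counts were tested with edgeR 4.0.16 (R 4.3.3, limma 3.58.1): TMM normalization, 21495 genes kept by filterByExpr (minimum count 10), 4 groups in 1 fit. The SE of a log2FC was derived from its F statistic (size of log2FC over the root of F). Log2 CPM used a prior count of 2, and log2 FPKM a pseudocount of 1. The test was checked on simulated counts with a common spread for all genes, set below that of the 10 genes, and no outlying library. That check therefore does not cover genes as variable as the 10. DESeq2 1.42.0, RLE normalization, no filter, robust fitting, a replicate block, the 36 other choroid plexus genes as covariate, fits of 2 groups and leaving out each library were alternatives. Positions are from GENCODE vM21. The intervals of ratios are exact (Clopper-Pearson, 95%) and cover counting error only. The members and the lists were chosen with earlier results of these data known. Named were all 10 genes, the 8 highest and 4 lowest of the 36 by r, the 15 genes with the highest r, and the 3 most abundant of each further list. A few genes that this rule names are not reported here. Columns of the authors' own comparisons were not used. Nothing in the labels says which animals went into which pool, so P-values measure the spread between libraries.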

Additional observations from a re-analysis of the deposited data

How the results depend on the processing

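The number of the 10 genes called in aged ICH vs. aged sham, 5, was 0 with an adjusted P (5.48%). Shares in brackets are of all genes tested, called in either direction. It was 0 with robust fitting (9.75%) and 0 with the other choroid plexus genes as covariate (11.1%). It was 9 in a fit of the groups compared only (10.3%) and 10 with no filter (7.16%). Over the fits that left out 1 library each, it was 0 to 10 (7.55% to 12.7%). In young ICH vs. young sham the 0 became 2 with no filter (8.61%) and 8 (all lower) with the covariate (12.3%). With the covariate, 7 of these 8 also had an adjusted P below 0.05 by edgeR (8.29%). Without 1 library the number called was 0 to 4 (9.76% to 14.4%). The covariate gave 3 in aged vs. young sham (4.4% of all genes), 4 in aged vs. young ICH (3.88%) and 7 in the interaction (2.4%). The groups compared only gave 9 in aged vs. young sham (3.81%). Leaving out 1 library gave 0 to 9 in aged vs. young ICH (2.81% to 4.72%) and 0 to 9 in the interaction (1.37% to 2.71%). With the covariate the median log2FC was -1.29 in young ICH vs. young sham and 0.046 in aged ICH vs. aged sham, and the covariate moves with the genes by construction. Without 1 library, the median ran from -2.63 to 2.76 in young ICH vs. young sham, from -1.0045 to 4.01 in aged vs. young ICH and from 0.80 to 5.72 in the interaction. The ranges of counts per 1000 Ttr counts without young ICH 2 were chosen after seeing the data. The cause of these shifts was not tested.

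For Ttr, the sign turned in young ICH vs. young sham with the covariate (-1.76) and without young ICH 3 (-3.61), and in aged vs. young ICH with the covariate (1.25), with the replicate block (0.73), without aged ICH 3 (0.39) and without young ICH 3 (5.78). Over the fits without 1 library, the log2FC of Ttr ran from -3.61 to 3.02 in the first and from -0.76 to 5.78 in the second of these comparisons. In aged ICH vs. aged sham the covariate turned the log2FC of F5 to -0.063, Otx2 to -0.37, Kcnj13 to -0.083 and Sostdc1 to -0.69.

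Samples with the same replicate number did not deviate together, since 5 of 18 such pairs had a correlation over 0.1, from -0.454 to 0.235, so the numbers do not pair the libraries. With the replicate block, 1 of 10 genes was called in aged ICH vs. aged sham, against 9.76% of all genes. Genes with a few reads in the low libraries, such as Slc4a5 and Cldn2, were limited by counting there.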
